A study of Rattus norvegicus with 36 samples.

Results

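The complement and coagulation factors were followed as a gene list in the livers of 36 male Wistar rats hybridised to Illumina rat beadchips. Of 42 listed genes, 39 had a probe under the current symbol or an older name. All 39 were detected on all 36 arrays, and all 39 were among the 9314 genes tested. No probe was found under the names C3, Masp1 and Fga, which are not analysed here. C1qc was read from a probe that carries its older name, C1QG.

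Every rat was fed a vitamin A sufficient or a vitamin A deficient diet, was sham-operated or had its bile duct ligated, and received daily intraperitoneal injections of retinyl palmitate or of vehicle. Bile duct ligation closes the common bile duct and produces obstructive cholestasis. There were 5 rats in each of the 4 ligated groups and 4 rats in each of the 4 sham groups, and the groups shared the strain and the sex. All rats thus carried an operation and daily injections, controls included. In the plots VAS and VAD stand for the sufficient and deficient diets, BDL for ligation, and VITA and VEH for retinyl palmitate and vehicle. The dose of retinyl palmitate, the composition of the vehicle and the times of diet and operation are not stated in the labels, so a group is described by diet, operation and injection alone.

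Complement is a cascade of plasma proteases that marks microbes and dying cells, recruits leukocytes and ends in a membrane pore. It is triggered by C1q on bound antibody, by mannose-binding lectins on sugar patterns, or by the alternative pathway, and coagulation is a parallel cascade that ends in fibrin. Hepatocytes secrete most of both cascades into plasma, whereas the 3 chains of C1q are made mainly by macrophages, in liver the Kupffer cells and macrophages recruited from blood. Several clotting factors and anticoagulants need vitamin K for activation, and uptake of vitamin K from the gut depends on bile.

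Of the 39 genes tested, 35 were on the liver-secreted list, which leaves out the C1q chains and Cfd. All members whose response to ligation differed with diet were on that list, and the largest rise after ligation was in the C1q B chain. The 300-base windows around the annotated starts of 3 of the former (Mbl1, C8a and Klkb1) and of C1qb are printed so that both kinds of promoter can be read side by side. They are RefSeq sequences of build GRCr8. Mbl1 lies at chr16:17062982-17063281 on the plus strand, Klkb1 at chr16:53690976-53691275 on the plus strand, C8a at chr5:124866582-124866881 on the minus strand and C1qb at chr5:154407778-154408077 on the minus strand. Each is written from 5′ to 3′ along its gene. Capitals mark matches, on either strand, to 4 letter patterns: GTTAAT, a binding half-site of HNF1; AGGTCA, a nuclear receptor half-site; TTGCNNAA, the C/EBP pattern; and GAGGAA, the ETS core bound by PU.1. No marked match overlaps another.
Mbl1: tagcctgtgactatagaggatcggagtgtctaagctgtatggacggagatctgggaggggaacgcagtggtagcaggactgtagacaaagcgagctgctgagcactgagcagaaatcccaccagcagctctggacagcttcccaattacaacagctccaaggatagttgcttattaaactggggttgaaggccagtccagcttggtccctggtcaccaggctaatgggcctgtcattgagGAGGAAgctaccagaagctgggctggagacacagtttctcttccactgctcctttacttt
C8a: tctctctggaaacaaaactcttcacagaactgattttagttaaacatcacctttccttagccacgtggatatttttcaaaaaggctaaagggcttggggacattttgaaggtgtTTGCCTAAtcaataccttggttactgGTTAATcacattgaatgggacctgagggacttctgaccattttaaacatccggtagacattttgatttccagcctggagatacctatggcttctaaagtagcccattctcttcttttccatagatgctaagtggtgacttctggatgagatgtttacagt
Klkb1: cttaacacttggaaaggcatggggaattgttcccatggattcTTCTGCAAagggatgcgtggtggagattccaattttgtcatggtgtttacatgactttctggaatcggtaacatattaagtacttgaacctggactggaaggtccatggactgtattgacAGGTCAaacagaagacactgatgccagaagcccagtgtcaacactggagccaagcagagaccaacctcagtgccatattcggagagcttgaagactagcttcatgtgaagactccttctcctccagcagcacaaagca
C1qb: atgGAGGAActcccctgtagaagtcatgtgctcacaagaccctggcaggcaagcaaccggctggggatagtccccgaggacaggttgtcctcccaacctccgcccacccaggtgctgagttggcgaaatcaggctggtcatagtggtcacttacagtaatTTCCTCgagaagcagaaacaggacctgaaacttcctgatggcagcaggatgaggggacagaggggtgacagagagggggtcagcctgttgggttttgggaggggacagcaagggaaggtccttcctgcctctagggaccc

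C8a held a C/EBP match and an HNF1 half-site, Klkb1 held a C/EBP match and a nuclear receptor half-site, and Mbl1 held only the GAGGAA core. C1qb held the GAGGAA core once on each strand and none of the other 3 patterns. A window was at hand for 31 of the 39 genes, 28 of them on the liver-secreted list. GTTAAT was found in 9 of those 28 windows (32.1%), against 7.45% of all 33469 promoter windows. AGGTCA was found in 12 (42.9%, against 16.2%) and TTGCNNAA in 10 (35.7%, against 10.6%), whereas GAGGAA was found in 8 (28.6%, against 27.6%). Of the 2 C1q windows at hand, C1qa and C1qb, 1 held GAGGAA and none held the other patterns. These are counts of letters in a window and were not tested.

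Several of the genes are neighbours. C1qb, C1qc and C1qa follow one another on chromosome 5, C8b stands next to C8a on chromosome 5, Klkb1 next to F11 and F10 next to F7 on chromosome 16, C2 next to Cfb on chromosome 20, and C1r next to C1s on chromosome 4.

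Arrays were alike in quality: the median raw intensity ranged from 108.2 to 145.3 and the share of probes detected from 29.2% to 38.1%. Rats of 1 group correlated at 0.9437 to 0.9871 over the 9314 genes tested. Of 15 hepatocyte markers 13 were measured, and group means of albumin lay between 14.57 and 14.90 on the log2 scale, as the liver label requires. Values below are log2 normalised intensity, and changes are log2 differences with their standard error in parentheses. A gene was called changed when limma's p-value, adjusted over all 9314 genes, was under 0.05. The spread between rats of 1 group, pooled over groups, ran from an SD of 0.12 for Fgg to 0.48 for C5, with a median of 0.25. Levels of different genes are not compared, because each probe has its own scale.

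In vitamin A sufficient rats given vehicle, ligation raised the 3 C1q chains, the 3 classical pathway proteases C1r, C1s and C2, and also Cfd, C5 and C9. F11, F12 and Proc fell. That made 9 genes higher and 3 lower out of 39 (30.8%), against 17.4% of all genes called, 10.5% higher and 6.87% lower. The sham and ligated groups did not overlap for 14 of the 39, against 19.1% of all genes. When arrays were scaled only to a common median, 6 genes were called higher and 0 lower: C1r, C2, C9, F11, F12 and Proc missed the threshold, with adjusted p-values of 0.065 to 0.29. With that scaling the median of all genes moved up by 0.161. The 35 tested genes of the liver-secreted list had a median change of 0.02, beside -0.011 over all genes, with 5 higher and 3 lower.

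C1qb, which encodes the B chain of C1q, stood at 10.34, 10.38, 9.89 and 10.03 in the sufficient sham rats given vehicle. It stood at 11.94, 11.72, 11.64, 11.79 and 11.76 in the ligated rats of the same diet. Every ligated rat was above every sham rat, by a mean difference of 1.61 (0.18), or 3.05-fold, with an adjusted p of 6.4e-08. C1qa, the A chain, rose from 10.16, 10.08, 9.78 and 9.49 to 11.37, 11.14, 10.98, 11.10 and 11.08. The groups were again apart, and the change was 1.25 (0.24), 2.38-fold, with an adjusted p of 0.00025. C1qc, the C chain, rose from 10.01, 10.02, 9.63 and 9.50 to 11.48, 11.16, 11.23, 11.03 and 11.28. Its groups were apart as well, with a change of 1.45 (0.18), 2.73-fold, and an adjusted p of 4.1e-07. Macrophage markers moved with the C1q chains: of 19 listed, 14 were tested and 11 rose, among them Lgals3 by 1.95, Marco by 1.83 and Cd68 by 1.43, while Cd14 fell by 1.31. The markers Csf1r, Clec4f, Cd5l, Lyz2 and Fcer1g had no probe under those names. The part of these markers in the C1q result was not tested. In whole liver a larger number of macrophages and more C1q mRNA per macrophage cannot be told apart, just as fewer hepatocytes and less mRNA per hepatocyte cannot for the secreted factors.

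**Figure D1:**
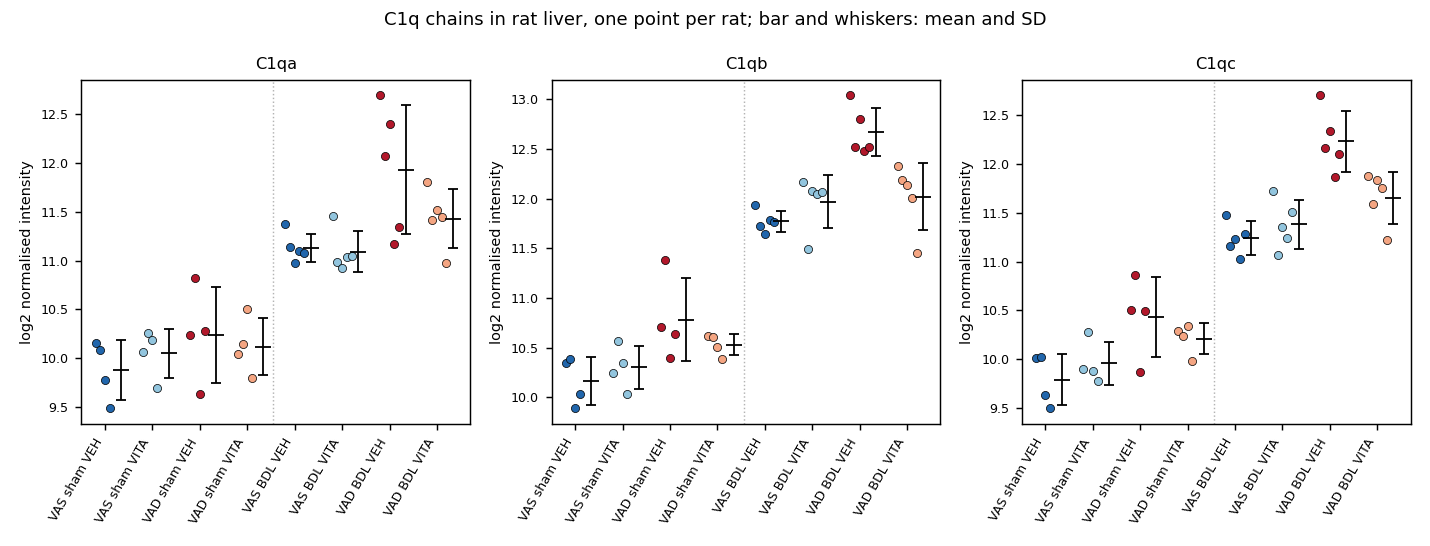
Log2 normalised intensity of C1qa, C1qb and C1qc in every rat of the 8 groups, with 1 point per rat and a bar and whiskers at the group mean and SD. Every ligated rat lies above the sham rats of its own diet and injection, and the deficient ligated vehicle group has the highest mean in all 3 panels.

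C1s, the protease that C1q-bound C1r activates, rose from 13.08, 12.91, 12.85 and 12.76 in sufficient sham rats to 14.27, 13.74, 13.77, 14.04 and 13.81 after ligation. No ligated rat reached down to the sham range, and the change was 1.03 (0.15), 2.04-fold, adjusted p 6.3e-06. Its neighbour and activator C1r rose by 0.54 (0.14), with an adjusted p of 0.0046. C2, which supplies the protease of the C3 convertase of this pathway, lay at 12.63 to 12.80 in sham rats and at 13.12 to 13.51 after ligation. The ranges did not touch, and the change was 0.55 (0.12), adjusted p 0.00078. In deficient rats given vehicle C1s rose by 0.66 (0.15), C1r by 0.46 (0.14) and C2 by 0.37 (0.12), with adjusted p-values of 0.00057, 0.0072 and 0.011.

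C9, which polymerises into the membrane pore, lay at 13.72 to 14.22 in sufficient sham rats and at 14.43 to 14.95 after ligation. The groups were apart, with a change of 0.68 (0.17) and an adjusted p of 0.0049. C5, whose cleavage starts pore assembly, rose by 0.88 (0.30), adjusted p 0.041, but leaving out any 1 of 5 of the 9 rats ended the call, with the highest adjusted p, 0.18, without sham rat 4. F11 fell by 0.58 (0.20), F12 by 0.57 (0.20) and Proc by 0.34 (0.12), with adjusted p-values of 0.043, 0.039 and 0.046. F11 and F12 are proteases of the intrinsic clotting pathway, and Proc encodes protein C, an anticoagulant protease. Leaving out 1 rat ended the call of F11 in 6 of 9 cases, of F12 in 7 and of Proc in 7, with adjusted p-values of up to 0.16 (without sham rat 1), 0.13 and 0.17 (both without sham rat 4). The lectin pathway genes stood at -0.53 for Masp2, -0.47 for Mbl2 and -0.21 for Mbl1, with adjusted p-values of 0.051, 0.067 and 0.53, so none was called. Masp2 was called lower under 5 other settings, with adjusted p-values of 0.0061 to 0.045, and Mbl2 under 3, with 0.014 to 0.039.

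In vitamin A deficient rats given vehicle, ligation also raised the C1q chains, C1r, C1s, C2, Cfd and C9. It lowered all 3 lectin genes measured, the 3 C8 chains of the 5 terminal pathway genes, 5 of the 8 clotting factors other than fibrinogen, and all 4 anticoagulant genes, besides Klkb1 and Plg. Of 39 genes 8 rose and 17 fell (64.1%), against 40.5% of all genes called, 20.8% higher and 19.7% lower. The groups did not overlap for 20 of 39, against 29.4% of all genes. With median scaling 5 were higher and 15 lower: C1r, C2, C9, C8a, F7 and F9 missed the threshold, C2 at 0.20, C9 at 0.24, C1r at 0.29 and F7 at -0.14. Vtn was called lower only with that scaling, at -0.36 with an adjusted p of 0.043. The median change of the liver-secreted list was -0.31, beside -0.037 over all genes, with 4 higher and 17 lower. Of the 9 genes that rose in sufficient rats and the 8 that rose in deficient rats, 8 were shared, which is 8 of 9 and 8 of 8. Of the 3 that fell in sufficient rats and the 17 that fell in deficient rats, 3 were shared, which is 3 of 3 and 3 of 17. These sets come from separate rats and share no array, but their calls use a common estimate of the spread. The matching overlap over all genes was not counted, so these shares describe the members only.

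C1qb stood at 10.71, 11.38, 10.39 and 10.64 in deficient sham rats given vehicle and at 13.04, 12.52, 12.80, 12.48 and 12.52 after ligation. The lowest ligated rat was more than 1 log2 unit above the highest sham rat, and the change was 1.89 (0.18), 3.71-fold, adjusted p 2.7e-10. C1qa rose by 1.69 (0.24), from 10.24, 10.82, 9.63 and 10.28 to 12.69, 12.07, 12.40, 11.17 and 11.34, with an adjusted p of 6.9e-07. C1qc rose by 1.80 (0.18), from 10.50, 10.86, 9.87 and 10.49 to 12.70, 12.16, 12.34, 11.87 and 12.10, with an adjusted p of 8.4e-10. Ligated rat 1 was the highest of its group in all 3 chains. Of the 14 macrophage markers tested 12 rose in this comparison and none fell, with Trem2 at 3.94, Marco at 3.48 and Cd68 at 2.16, and their part in the result was not tested.

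Cfd encodes factor D, the alternative pathway protease, which in the body at large is made by fat and myeloid cells. It stood at 9.42, 9.74, 9.51 and 9.84 in sufficient sham rats and at 10.55, 10.12, 10.06, 10.44 and 10.71 after ligation, all given vehicle. In deficient rats it stood at 10.39, 10.61, 10.25 and 10.62 after sham operation and at 11.92, 11.55, 11.69, 11.42 and 11.29 after ligation. Both ligated groups lay wholly above their sham groups, by 0.75 (0.22) in sufficient rats, adjusted p 0.014, and by 1.11 (0.22) in deficient rats, adjusted p 0.00012. Without sufficient sham rat 1 the former missed the threshold at 0.051. The adipocyte marker Fabp4, which macrophages also make, rose by 1.74 and by 4.68 in the same comparisons, whereas Cidec, a fat droplet protein, stood at -0.01 and fell by 0.76. Adipoq, Plin1, Lep and Retn, which mark fat more closely, were detected on fewer than 4 of the 36 arrays.

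**Figure D2:**
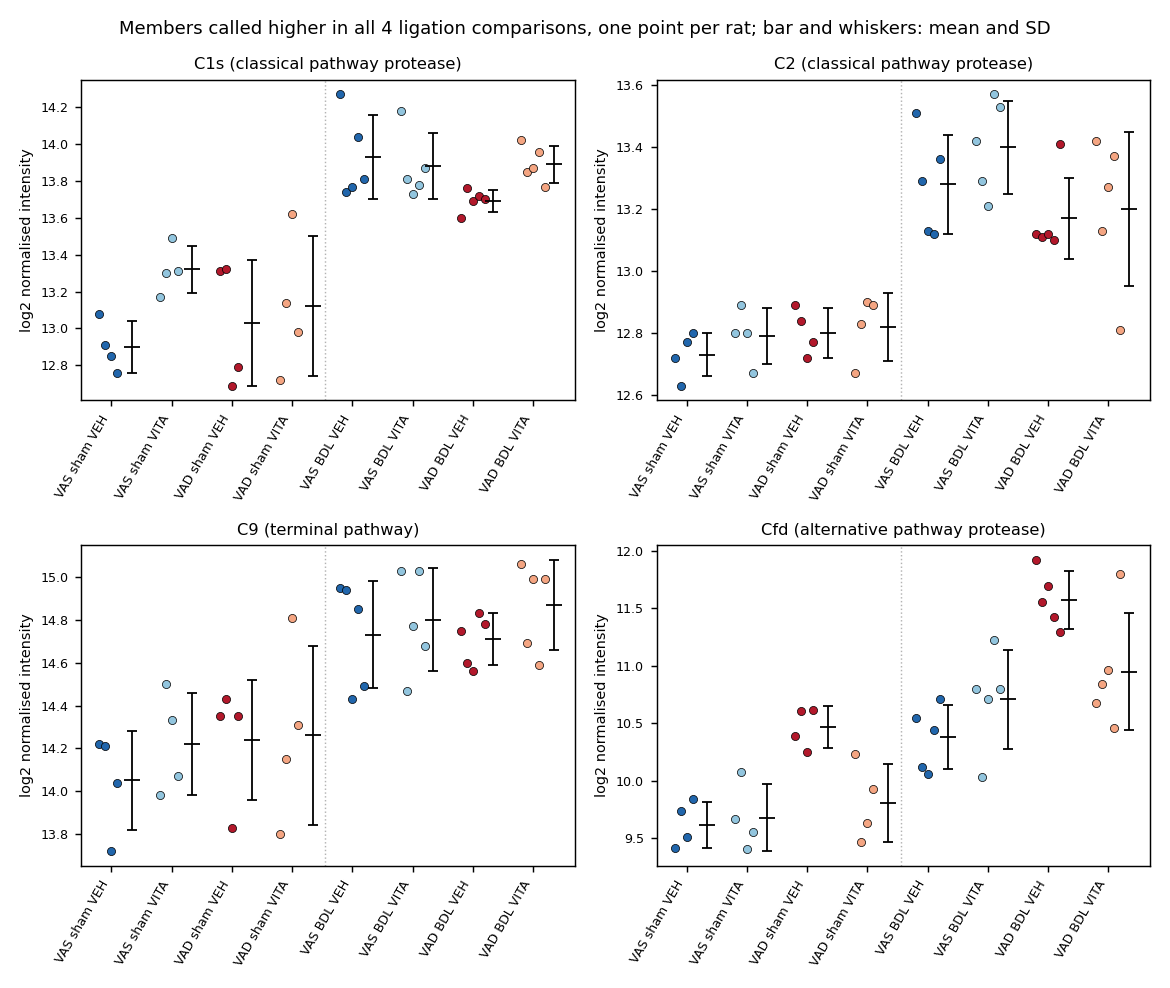
Log2 normalised intensity of C1s, C2, C9 and Cfd in every rat of the 8 groups, with 1 point per rat and a bar and whiskers at the group mean and SD. All 4 are higher after ligation, and Cfd reaches 11.29 to 11.92 in the deficient ligated vehicle rats, above the 10.06 to 10.71 of the sufficient ones.

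The genes that fell in deficient ligated rats were led by C8g, the gamma chain of the pore protein C8. It stood at 12.74, 12.53, 12.90 and 12.88 in deficient sham rats and at 10.95, 11.53, 11.53, 11.58 and 11.58 after ligation. The groups were nearly 1 log2 unit apart at their nearest, and C8g fell by 1.33 (0.14), 2.52-fold, adjusted p 4.6e-09. F11 stood at 8.74, 8.69, 8.40 and 8.53 in the sham rats and at 7.37, 7.63, 7.27, 7.23 and 6.87 after ligation. Its groups were also apart, with a fall by 1.31 (0.20), adjusted p 3.1e-06. Mbl1, the rat's mannose-binding lectin A, stood at 9.39, 8.77, 8.88 and 9.48 and then at 7.27, 7.98, 7.94, 8.37 and 7.89. No ligated rat reached the sham range, and Mbl1 fell by 1.24 (0.20), 2.36-fold, adjusted p 5.1e-06.

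All 3 measured lectin pathway genes fell. Mbl2, mannose-binding lectin C, fell by 0.83 (0.18) and its protease partner Masp2 by 0.91 (0.19), with adjusted p-values of 0.00032 and 0.00022. Of the 5 terminal pathway genes, the 3 C8 chains fell, C8a by 0.72 (0.17), adjusted p 0.00082, and C8b by 0.70, adjusted p 0.018, or 0.084 without ligated rat 3. C9 rose by 0.46 (0.17), adjusted p 0.031, and C6 stood at 0.17. The C9 call ended without any 1 of 4 of the 9 rats, and was at 0.33 with an adjusted p of 0.16 without sham rat 3.

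Of the vitamin K dependent clotting factors, F7, F9 and F10 fell by 0.61, 0.62 and 0.59, with adjusted p-values of 0.037, 0.047 and 0.0023, while F2, prothrombin, stood at -0.07. F7 starts the extrinsic pathway on tissue factor, F9 and F10 act downstream of it. The F9 call ended without any 1 of 7 rats, with an adjusted p of 0.14 without ligated rat 3, and the F7 call ended without any 1 of 4, at -0.40 and 0.21 without sham rat 4. F12 fell by 1.11 (0.20), adjusted p 2.4e-05. Klkb1, the plasma prekallikrein that F12 activates, fell by 0.84 (0.19), adjusted p 0.00044, while Kng1, their kininogen cofactor, stood at 0.14. Kng1 shares older names with close relatives on the array, so its value is uncertain.

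All 4 anticoagulant genes fell. Serpinc1, antithrombin, fell by 0.68, Proc by 0.62, Pros1, the protein S cofactor of protein C, by 0.45 and Serpind1, heparin cofactor II, by 0.31, with adjusted p-values of 1e-04, 0.00011, 0.0051 and 0.041. The Serpind1 call ended without any 1 of 5 rats, with an adjusted p of 0.14 without sham rat 3. Plg, plasminogen, the precursor of the protease that dissolves fibrin, fell by 0.59, adjusted p 0.002, and its inhibitor Serpinf2 stood at -0.09. Fgb and Fgg, 2 of the 3 fibrinogen chains, stood at 0.00 and 0.12. Complement inhibitors did not pass the test in either diet: Cfi, C4bpa, C4bpb and Vtn lay between -0.08 and 0.24 in sufficient rats and between -0.16 and 0.03 in deficient rats. With median scaling Vtn was called lower in deficient rats, as given above. Cfb, the protease precursor of the alternative pathway, stood at 0.09 and at 0.16.

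Among ligated rats given vehicle, the deficient diet was accompanied by higher C1q chains, Cfd and F5 and by lower values of 13 liver-secreted genes. The 18 genes called made up 46.2% of the 39, against 26.4% of all genes, and the 5 higher and 13 lower stood against 14.3% and 12.1% of all genes. The 2 diets did not overlap for 14 of 39 genes, against 20.1% of all genes. With median scaling 4 were higher and 11 lower: F5 missed the threshold at 0.49 with an adjusted p of 0.12, as did Serpind1 and Serpinc1. The median of the liver-secreted list was -0.26 (-0.037 over all genes), 6 of its 35 genes being above 0.

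C1qc and C1qb, whose values in these rats are given above, were higher under deficiency by 1.00 (0.17) and 0.90 (0.17), with adjusted p-values of 2.2e-05 and 8.3e-05, and no sufficient rat reached a deficient rat. C1qa was higher by 0.80 (0.23), adjusted p 0.007, with overlap, because deficient rats 4 and 5 at 11.17 and 11.34 lay within the sufficient range of 10.98 to 11.37. The macrophage list moved with them: 11 of 14 markers were higher and none lower, Trem2 by 3.29, Lgals3 by 2.00, Cd14 by 1.51 and Cd68 by 1.23, while Adgre1, a pan-macrophage marker, stood at 0.03. Their part in the C1q difference was not tested.

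Cfd was higher under deficiency by 1.20 (0.21), 2.29-fold, adjusted p 3.1e-05, the lowest deficient rat at 11.29 lying above the highest sufficient rat at 10.71. Fabp4 was higher by 3.52 and Cidec lower, at -0.98, in the same rats, and their part in the Cfd difference was not tested. F5, the cofactor that speeds thrombin formation, stood at 11.21, 11.42, 11.37, 11.14 and 11.31 in sufficient and at 11.87, 11.84, 11.62, 12.19 and 12.26 in deficient ligated rats. The groups were apart, and F5 was higher by 0.67 (0.15), adjusted p 0.00093, while no other clotting factor was called higher. Platelets carry F5 too, and Pf4, the only 1 of 6 platelet markers that was tested, was higher by 2.79 (0.29) in the same rats, a difference whose part in F5 was not tested.

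Mbl1 stood at 8.81, 9.24, 9.31, 8.95 and 9.19 in sufficient ligated rats, against 7.27 to 8.37 in the deficient ones. The ranges were apart, and Mbl1 was lower at -1.21 (0.19), 2.31-fold, adjusted p 5.7e-06. C8a, the alpha chain of C8, stood at 9.84, 9.49, 9.47, 9.54 and 9.18 in sufficient and at 8.02, 8.91, 8.24, 8.46 and 8.59 in deficient ligated rats. The groups were apart at -1.06 (0.16), 2.08-fold, adjusted p 3.7e-06. C8g, at 12.12 to 12.57 in sufficient rats, was lower at -0.88 (0.14), adjusted p 5.3e-06, with every deficient rat below every sufficient rat. Klkb1 stood at 11.70, 11.66, 11.14, 11.83 and 11.78 and then at 10.37, 10.41, 10.39, 11.18 and 11.21. Sufficient rat 3 lay below deficient rats 4 and 5, and the difference was -0.91 (0.18), adjusted p 0.00015.

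Mbl2 at -0.84 (0.17), F11 at -0.72 (0.19), Plg at -0.61 (0.14) and F12 at -0.56 (0.18) completed the 8 largest differences downward, with adjusted p-values of 0.00025, 0.0045, 0.0012 and 0.021. The other 5 lower genes, Pros1, F10, Proc, Serpind1 and Serpinc1, lay between -0.55 and -0.34, so that all 4 anticoagulant genes were lower. The call of Serpinc1 ended without any 1 of 6 of the 10 rats, of F12 without any 1 of 3 and of Serpind1 without either of 2, with adjusted p-values of 0.14, 0.087 and 0.079 without deficient rat 1. The classical proteases C1s, C1r and C2 stood at -0.24, -0.09 and -0.11 and none was called. Of the hepatocyte markers 1 of 13 was lower, Apoa2 at -2.02, and none was higher. Ligation itself had lowered 3 of the 13 in sufficient and 5 in deficient vehicle rats, and had raised 0 in either. Of all genes 6.87% and 19.7% were lower in those comparisons. The part of these markers in the secreted factors was not tested.

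The ligation response was called different between the diets for 4 genes, each with a more negative change under deficiency. That was 10.3% of the 39 against 7.92% of all genes, 4.25% higher and 3.67% lower. The 4 genes were Klkb1 at -1.04 (0.26), Mbl1 at -1.03 (0.28), C8g at -0.95 (0.20) and C8a at -0.78 (0.24), with adjusted p-values of 0.01, 0.018, 0.0026 and 0.036. In sufficient rats ligation left Klkb1, Mbl1, C8g and C8a at 0.20, -0.21, -0.38 and 0.06, none of them called, although C8g was called lower there under 4 other settings that kept all rats, with adjusted p-values of 0.038 to 0.048. These stand beside the falls given above in deficient rats. With median scaling 2 genes were called, 0 higher and 2 lower, and Mbl1 and C8a missed the threshold with adjusted p-values of 0.068 and 0.19. The C8a call also ended without any 1 of 11 of the 18 rats, with an adjusted p of 0.088 without deficient ligated rat 1, and that rat was the lowest of its group for Mbl1, C8a, C8g and Klkb1.

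For the C1q chains the difference in response was 0.44 for C1qa (95% interval -0.25 to 1.13), 0.28 for C1qb (-0.23 to 0.79) and 0.35 for C1qc (-0.16 to 0.87), with adjusted p-values of 0.51, 0.59 and 0.47. A larger C1q rise under deficiency was therefore not shown, and rises larger by up to 0.79 to 1.13 lie within these intervals. F5 stood at 0.62, adjusted p 0.09, and F7 at -0.91, adjusted p 0.093.

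**Figure D3:**
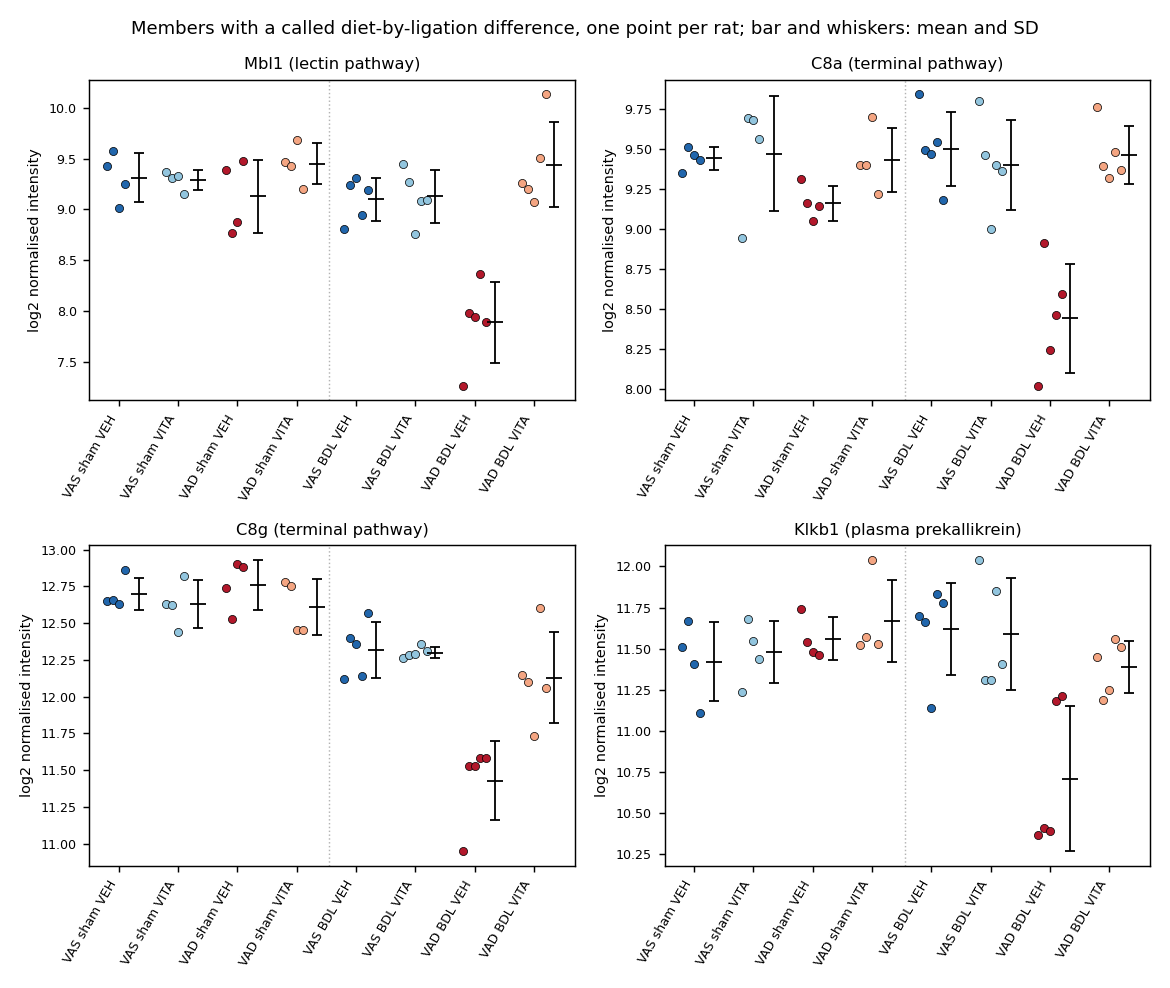
Log2 normalised intensity of Mbl1, C8a, C8g and Klkb1 in every rat of the 8 groups, with 1 point per rat and a bar and whiskers at the group mean and SD. The deficient ligated vehicle group has the lowest mean in every panel, and the deficient ligated rats given retinyl palmitate lie above it.

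In sham-operated rats given vehicle, no member was called between the diets by limma, where 1.11% of all genes were called. At an unadjusted p under 0.05 there were 5, Cfd, C1qb, C1qc and F7 higher and Mbl2 lower, a limit at which all genes were not counted. Other settings called from 0 to 2. C1qb stood at 0.62 (0.19), C1qc at 0.64 (0.19) and C1qa at 0.36 (0.25), with adjusted p-values of 0.11, 0.095 and 0.68. The C1qb groups did not overlap, and 5 of 39 genes had groups apart, against 5.23% of all genes. With slide as a block C1qb was at 0.65 and C1qc at 0.69, with adjusted p-values of 0.024 and 0.013, and without deficient rat 3 C1qc was at 0.83 with 0.017. Vsig4, a Kupffer cell receptor for C3b, was the only macrophage marker called, at 1.09. Cfd stood at 0.84 (0.23), adjusted p 0.07, its ranges of 9.42 to 9.84 and 10.25 to 10.62 being apart.

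In deficient ligated rats, retinyl palmitate was accompanied by higher Mbl1, Mbl2, Masp2, C8a and C8g, with F11, Klkb1 and Pros1, and by lower C1qb, C1qc, Cfd and F5. Of 39 genes 8 were higher and 4 lower (30.8%), against 17% of all genes, 7.67% higher and 9.32% lower. With median scaling 4 were higher and 0 lower: C1qb at -0.56, C1qc at -0.49, Cfd at -0.49 and F5 at -0.41 missed the threshold, with adjusted p-values of 0.072 to 0.25, as did Masp2, Mbl2, F11 and Pros1. The treated and vehicle rats did not overlap for 6 of 39 genes, against 10.7% of all genes. The vehicle rats here are the same 5 arrays as in the comparison of diets after ligation, so a low or high value in them enters both with opposite sign.

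Mbl1 stood at 9.26, 9.20, 9.07, 9.51 and 10.13 in the treated rats. All were above the vehicle rats, by 1.54 (0.19), 2.92-fold, adjusted p 3e-07. C8a stood at 9.76, 9.39, 9.32, 9.48 and 9.37, again above every vehicle rat, with a difference of 1.02 (0.16), 2.03-fold, adjusted p 1.6e-05. C8g stood at 12.15, 12.10, 11.73, 12.60 and 12.06, apart from the vehicle rats by 0.69 (0.14), adjusted p 0.00033, while the third C8 chain, C8b, stood at 0.23 (0.23) and was not called. Klkb1 stood at 11.45, 11.19, 11.25, 11.56 and 11.51, with 1 treated rat below the highest vehicle rat, and was higher by 0.68 (0.18), adjusted p 0.0058.

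Mbl2 was higher by 0.57 (0.17), F11 by 0.56 (0.19), Masp2 by 0.55 (0.18) and Pros1 by 0.39 (0.12), with adjusted p-values of 0.016, 0.038, 0.03 and 0.022, so that all 3 measured lectin genes were higher. Masp2 rested on treated rat 5 at 9.61, the others lying at 8.22 to 8.48, and was at 0.30 with an adjusted p of 0.15 without it. Leaving out 1 rat ended the call of F11 in 6 of 10 cases, of Masp2 in 4, of Mbl2 in 3 and of Pros1 in 3, with adjusted p-values of up to 0.12 and 0.15 without treated rat 5 and of up to 0.057 and 0.062 without vehicle rat 5.

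C1qb stood at 12.33, 12.19, 12.14, 12.01 and 11.45 in the treated rats, all below the vehicle rats, and was lower at -0.65 (0.17), adjusted p 0.0057. C1qc stood at 11.88, 11.59, 11.83, 11.75 and 11.22, with 1 treated rat above the lowest vehicle rat, and was lower at -0.58 (0.17), adjusted p 0.014, a call that ended without vehicle rat 1, at 0.069, and without treated rat 5. C1qa stood at 11.80, 11.42, 11.52, 11.45 and 10.97 and was not called, at -0.50 (0.23) and an adjusted p of 0.13. With slide as a block C1qa was called, at -0.62 with an adjusted p of 0.006. Macrophage markers were lower in 11 of 14 cases and higher in none, Trem2 at -2.42, Lgals3 at -1.47 and Cd68 at -1.21, and their part was not tested.

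Cfd stood at 10.68, 10.84, 10.96, 10.46 and 11.80 in the treated rats, 4 of them below every vehicle rat and rat 5 near the top of the vehicle range. It was lower at -0.63 (0.21), adjusted p 0.033, and leaving out any 1 of 7 of the 10 rats ended the call, with 0.12 without treated rat 4. F5 stood at 11.47, 11.41, 10.95, 11.68 and 11.69, of which 2 rats overlapped the vehicle rats, and was lower at -0.52 (0.15), adjusted p 0.014, a call that ended without treated rat 3, at 0.073, and without vehicle rat 5. Fabp4 stood at -1.17, Cidec at 0.83 and Pf4 at -1.79 in the same comparison, and their part was not tested.

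The other comparisons of retinyl palmitate with vehicle called no member by limma. In deficient sham rats 1.3% of all genes were called, 0.741% higher and 0.558% lower. Without adjustment 5 members had a p under 0.05 there, and the share of all genes at that limit was not counted. The groups did not overlap for 2 of 39, against 6.23% of all genes. Cfd was nearest, at -0.65 with an adjusted p of 0.21, and the C1q chains stood at -0.12, -0.25 and -0.22 for A, B and C. Without treated rat 3 Fgb was called in that comparison, at -0.53 with an adjusted p of 0.029. In sufficient ligated rats 0% of all genes were called, and in sufficient sham rats 0.0215%. The only members with an unadjusted p under 0.05 were F10 at -0.35 in the former and C1s at 0.42 in the latter. The unadjusted share over all genes was not counted here either. Groups were apart for 0 of 39 members in the former and for 1 in the latter, against 0.795% and 2.22% of all genes. The C1q chains stood between -0.04 and 0.20 in these comparisons of sufficient rats. No other setting called a member in either.

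Among ligated rats that received retinyl palmitate, no member was called between the diets by limma, where 0.0322% of all genes were called. An unadjusted p under 0.05 was found for 2 members, C1r and Plg, and was not counted over all genes. The groups did not overlap for 1 of 39 members, against 1.64% of all genes. C1qb stood at 0.05 (95% interval -0.29 to 0.40), C1qc at 0.27 (-0.07 to 0.62) and C1qa at 0.34 (-0.12 to 0.80). Mbl1 stood at 0.31 (-0.07 to 0.69), C8g at -0.17 (-0.45 to 0.10) and Klkb1 at -0.20 (-0.55 to 0.16). No alternative setting called a member.

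Ligation in rats given retinyl palmitate changed 11 members in sufficient rats, 8 higher and 3 lower (28.2%), where 25.3% of all genes were called, 14.5% higher and 10.8% lower. In deficient rats it changed 14, 9 higher and 5 lower (35.9%), where 24.3% were, 13.3% higher and 11% lower. C1qb rose by 1.67 and 1.5, C1qc by 1.42 and 1.44 and C1qa by 1.04 and 1.31 in sufficient and deficient rats, with adjusted p-values between 1.8e-08 and 0.0014. Every ligated rat was above every sham rat of its diet for the C1q chains, and the groups were apart for 10 and 9 of the 39 members, against 21.1% and 18.5% of all genes. Cfd rose by 1.03 and 1.14, and C1s by 0.56 and 0.78. F11 fell by 1.11 and 0.65, Mbl2 by 0.70 and 0.84, and F10 by 0.48 and 0.59. In deficient treated rats C8g fell by 0.48, adjusted p 0.013, and C5 and Fgb rose by 1.02 and 0.38, adjusted p 0.012 and 0.03. The C8g call ended without any 1 of 3 of the 9 rats, the Fgb call without any 1 of 4 and the C5 call without sham rat 4, with adjusted p-values of up to 0.057, 0.18 (both without sham rat 1) and 0.061. Calls of F10 in sufficient treated rats and of F11 in deficient treated rats also ended without 1 rat, at up to 0.094 (ligated rat 3) and 0.077 (sham rat 3).

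C1qa, C1qb, C1qc, C1s, C2, C9 and Cfd were called higher in all 4 ligation comparisons. The comparisons share no array but use a common estimate of the spread. With median scaling C9 missed the threshold in all 4, C2 in 3 and C1s in 1. With only the compared groups fitted, C2 missed it in deficient vehicle and deficient treated rats, with adjusted p-values of 0.062 and 0.13. C9 missed it with that setting in deficient treated rats, at 0.066, and with no filter in deficient vehicle rats, at 0.051. Without sham rat 1 C9 lost its call in the treated rats of either diet, at 0.063 in sufficient and 0.075 in deficient rats, and C2 lost its call in deficient treated rats, at 0.067, as it did without ligated rat 1. These 7 make 17.9% of the 39, while 6.69% of all genes were called higher in all 4. F11 was the only member called lower in all 4, 2.56% of the 39 against 3.35% of all genes. The mean of the deficient ligated vehicle group was the lowest of the 8 groups for 20 of the 39 members, against 28.5% of all genes. It was the highest for 5, C1qa, C1qb, C1qc, Cfd and F5, against 25.8% of all genes.

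**Figure D4:**
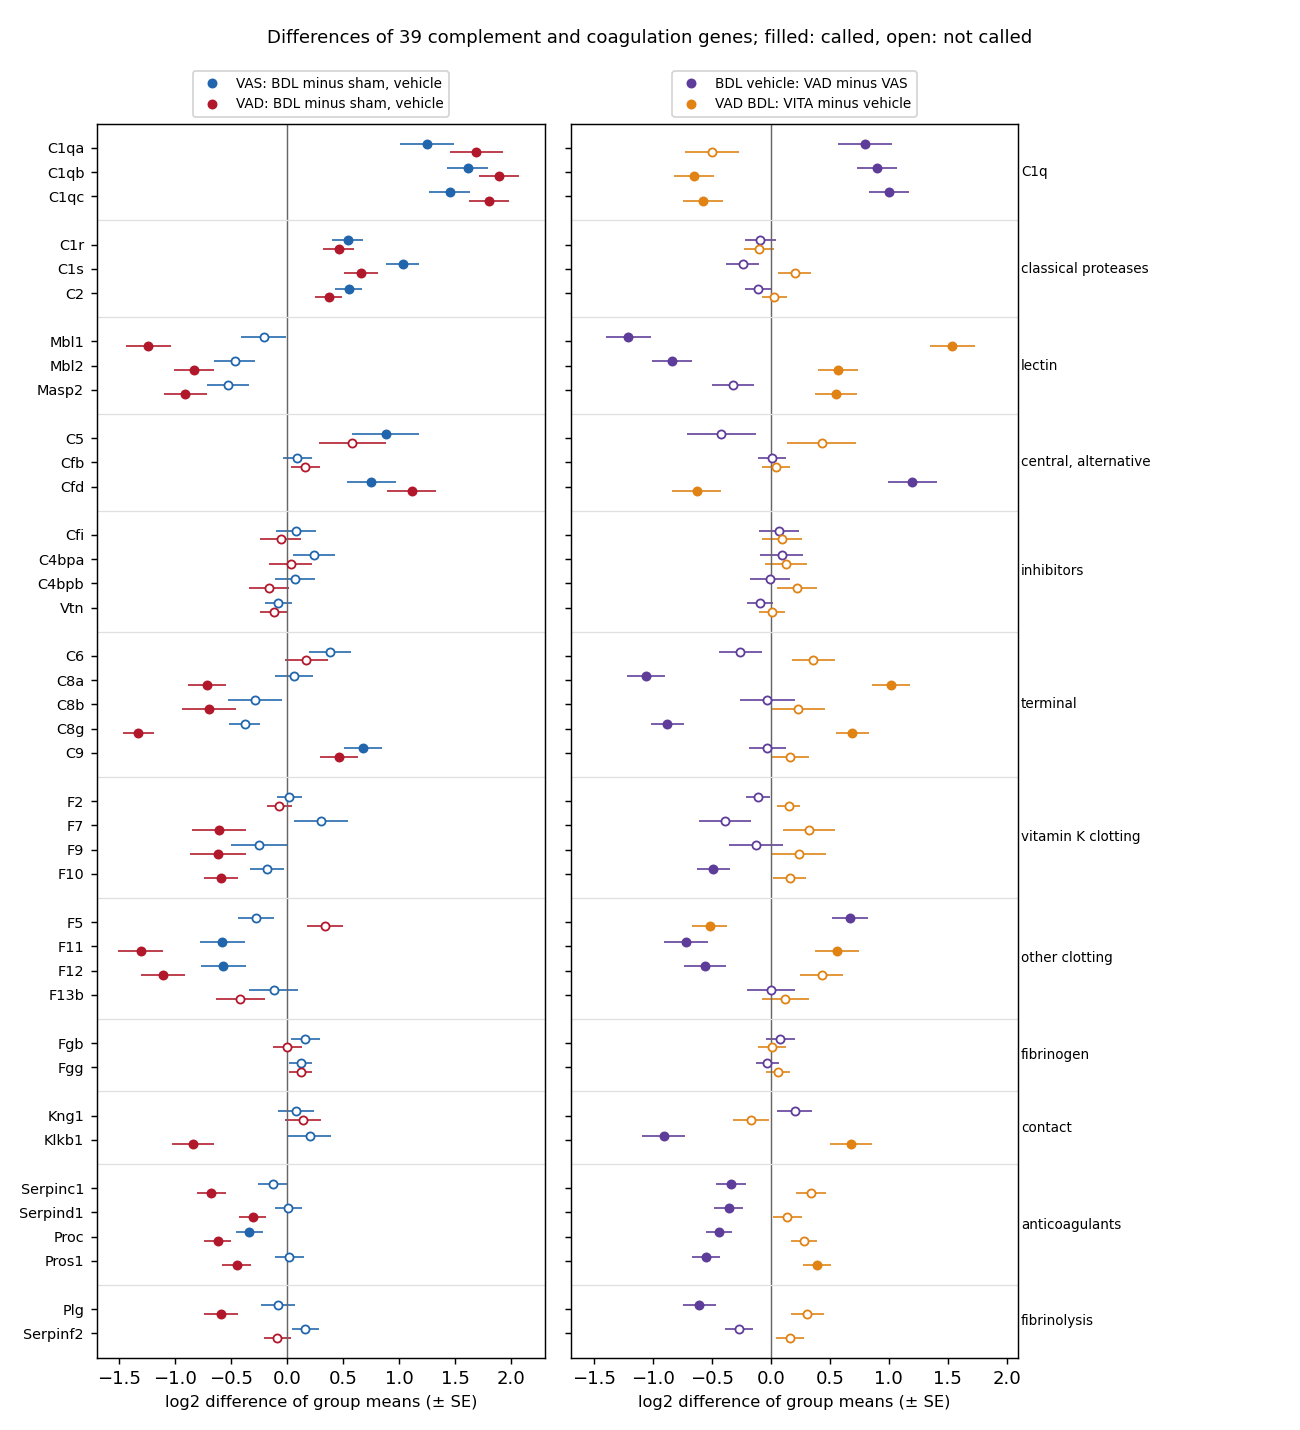
Log2 difference of group means, with its SE, for each of the 39 genes grouped by role; the left panel shows ligation in sufficient and deficient vehicle rats and the right panel deficiency and retinyl palmitate in ligated rats, with filled markers for genes called by limma. On the left 3 genes lie below 0 with a filled marker in sufficient rats and 17 in deficient rats, and on the right the C1q chains and Cfd lie above 0 for deficiency and below 0 for retinyl palmitate.

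Set against the secreted factors, the C1q chains stood apart most in the deficient ligated rats given vehicle. The C1q level of a rat, taken as the median over the 3 chains of its log2 difference from the mean of sufficient sham rats given vehicle, was 1.45 ± 0.17 (SD, n = 5) in sufficient ligated rats and 2.44 ± 0.30 (n = 5) in deficient ligated rats given vehicle. It was 0.55 ± 0.41 (n = 4) in deficient sham rats, with a range of 0.09 to 1.07, and 1.80 ± 0.31 (n = 5) in deficient ligated rats given retinyl palmitate. The same level over the 35 secreted genes was -0.15 ± 0.22 (n = 5) in deficient ligated vehicle rats, with a range of -0.40 to 0.16, and group means elsewhere lay between -0.02 and 0.05. The level of C1q minus secreted genes was 1.42 ± 0.16 in sufficient ligated, 2.58 ± 0.51 in deficient ligated and 1.82 ± 0.39 in treated deficient ligated rats (SD, n = 5 each). Marker lists are whole-liver mRNA levels and do not count cells. The macrophage list stood at 1.27 ± 0.14, 2.32 ± 0.26 and 1.55 ± 0.10 in those groups and the hepatocyte list at -0.08, -0.21 and -0.08. The 2 neutrophil markers tested, S100a8 and Ncf1, stood at 1.63, 2.93 and 2.54. The cholangiocyte list stood at 1.79, 3.54 and 2.52 and the stellate cell and myofibroblast list at 1.01, 3.70 and 1.76 in the same groups. These levels describe the groups, and their part in the C1q and secreted levels was not tested.

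**Figure D5:**
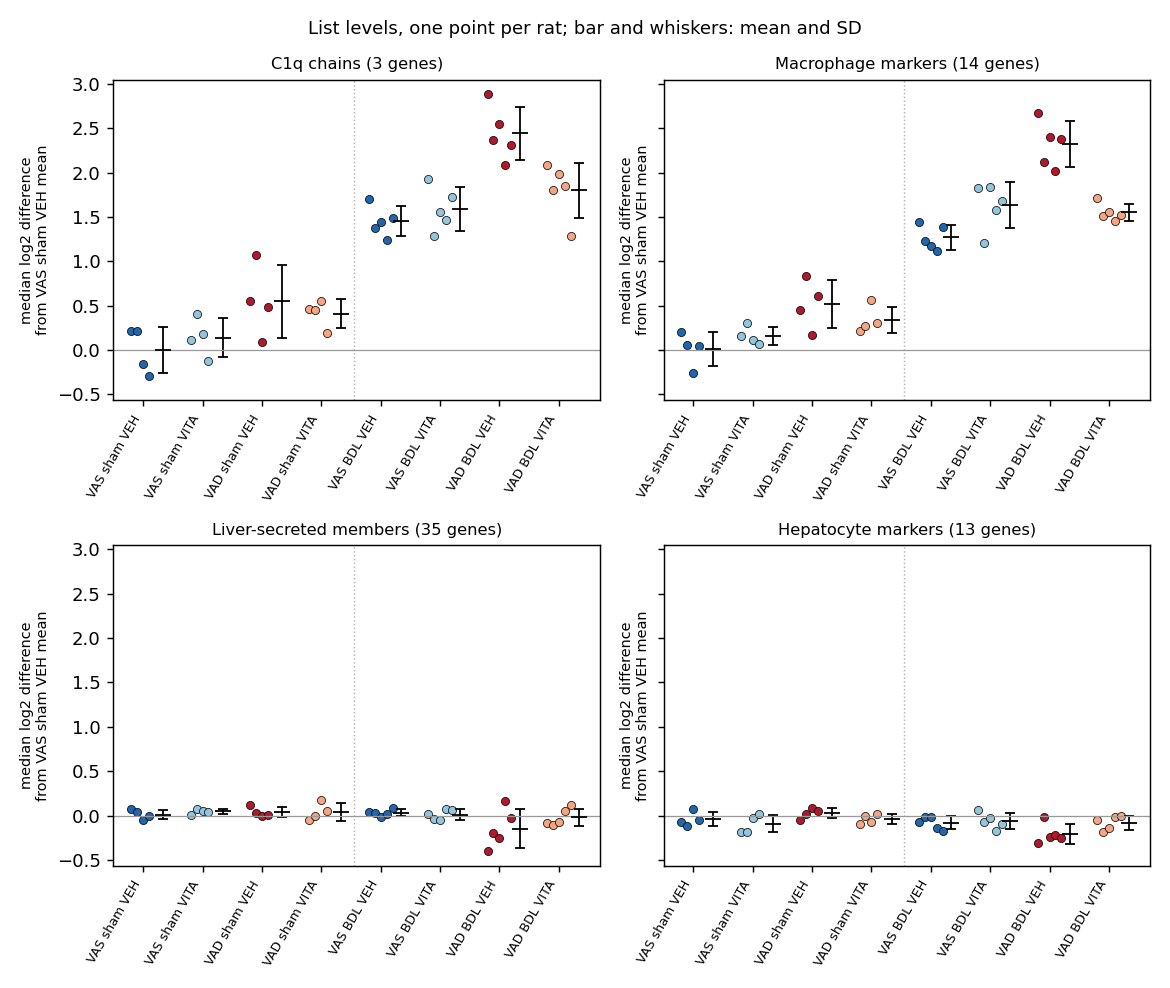
Median log2 difference from the mean of sufficient sham vehicle rats over the C1q chains, the macrophage markers, the liver-secreted genes and the hepatocyte markers, with 1 point per rat and a bar and whiskers at the group mean and SD. C1q and macrophage levels reach means of 2.44 and 2.32 in deficient ligated vehicle rats, while the secreted genes have a mean of -0.15 there.

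Hybridisation was spread over 3 slides, and each slide held several groups. Within every slide that held both groups, the called members moved the same way as over all slides in both vehicle ligation comparisons and in the diet comparison after ligation. The median C1q difference between diets after ligation was 1.38, 1.12 and 0.71 on slides 1, 2 and 3, and that of the secreted list was -0.45, -0.30 and -0.10. For retinyl palmitate in deficient ligated rats, 11 of 12 called members moved the same way on slide 3 and all 12 on slides 1 and 2. For ligation in deficient rats given retinyl palmitate, 12 of 14 did on slide 3.

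Of a further list of 62 complement and coagulation genes, mostly receptors, regulators and fibrinolytic genes, 44 were tested. In sufficient vehicle rats ligation raised 10 and lowered none, and in deficient rats it raised 21 and lowered 6. Of all genes 10.5% were higher and 6.87% lower in the former, and 20.8% and 19.7% in the latter. Plat, tissue plasminogen activator, was not well above background in any vehicle sham rat of either diet and rose by at least 2.79-fold in sufficient rats, and by at least 26.4-fold in deficient rats. Anxa2, a cell-surface docking protein for plasminogen, rose by 2.11 and 3.81. In deficient rats Proz, an anticoagulant cofactor, fell by 1.09, Hrg by 0.76, and Vkorc1, which recycles vitamin K, by 0.73.

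The response to ligation differed with diet for 9 of the 44, higher in 7 and lower in 2, against 4.25% and 3.67% of all genes. Plat differed by 3.41, a fitted value that rests on sham levels below background, F2r, the thrombin receptor, by 1.70 and Anxa2 by 1.70, with adjusted p-values of 0.00016, 0.00029 and 0.0017. Proz differed at -0.94, adjusted p 0.00065. In deficient ligated rats retinyl palmitate was accompanied by 14 lower and 4 higher genes, where 9.32% of all genes were lower and 7.67% higher. Plat was lower at -2.13 and Anxa2 at -1.77, and Proz was higher by 0.77, while Vkorc1 stood at 0.00 with an adjusted p of 0.99. Between the diets in sham rats only Vsig4 was called, where 1.11% of all genes were.

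Of 21 listed regulators of liver genes 16 were tested. Ligation in sufficient vehicle rats lowered 6 and raised none, with Onecut1 at -1.86, Hnf4a at -1.12 and Cebpa at -1.04, and in deficient rats it lowered 9 and raised 1. Of all genes 6.87% were lower and 10.5% higher in the former comparison, and 19.7% and 20.8% in the latter. In deficient rats the nuclear receptors Nr0b2, known as SHP, and Nr1h4, the bile acid receptor FXR, fell by 2.76 and 1.47, Cebpa by 1.27 and Hnf4a by 0.96. The acute-phase signalling gene Il6r fell by 1.49 in the same rats, with an adjusted p of 4.7e-06 and groups apart. In deficient ligated vehicle rats Nr0b2 and Nr5a2 were each detected on 3 of 5 arrays and Hnf4a on 2 of 5. The fitted sizes of their differences against that group thus rest partly on levels near background. The 1 regulator that ligation raised in deficient rats was detected on 0 of the vehicle sham arrays of that diet. Among ligated vehicle rats Nr0b2 stood at -2.25 and Nr1h4 at -1.41 under deficiency, both called, and 5 regulators in all were lower and 2 higher. Of all genes 12.1% were lower and 14.3% higher there. Foxa2 at -0.74, Nr5a2 at -0.69 and Il6r at -0.61 were the other lower regulators. Of the 2 higher ones, 1 was detected on 0 arrays of sufficient ligated vehicle rats. The response of Nr0b2 to ligation differed with diet by -3.32, adjusted p 0.00051. Retinyl palmitate in deficient ligated rats was accompanied by higher Nr0b2, Nr1h4 and Foxa1, at 1.76, 1.59 and 1.07. Nr1h4 was also called higher with retinyl palmitate in deficient sham rats, at 1.21 with an adjusted p of 0.027. Whether these regulators take part in the changes of the secreted factors was not tested.

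C5 was also read by a second probe, which rose by 0.83 in sufficient rats, adjusted p 0.00084, stood at 0.00 in deficient rats, and differed between the diets after ligation at -0.44 with an adjusted p of 0.045. By that probe the ligation response differed with diet at -0.83, adjusted p 0.031, beside -0.29 and 0.77 by the probe used. The 2 C5 probes thus differed in deficient rats, where the probe used stood at 0.58. The second Kng1 probe stood at 0.78 after ligation in sufficient rats, where the probe used stood at 0.08.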

How the data were processed

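Liver RNA of 36 rats, 8 groups of 4 or 5, was measured on Illumina rat beadchips. Per the labels' protocols, RNA was extracted with TriReagent, its quality was checked by electrophoresis and biotinylated cRNA was hybridised. The authors deposited, per the file headers, a mean bead intensity and a detection p-value per probe and array, not normalised. They also deposited a table of linear normalised intensity whose method, scale and centring no source used here gives. It served as an alternative.

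Intensities were corrected and quantile-normalised with neqc in limma 3.58.1 (R 4.3.3), with background estimated from the detection p-values and an offset of 16, and taken to log2. Probes detected at p under 0.01 on at least 4 arrays were kept, 9545 of 22523, and each of 9314 genes was read from its brightest probe on average. Group means of all 8 groups were fitted together (28 residual degrees of freedom), and p-values were adjusted by Benjamini-Hochberg over all 9314 genes. Probe names were matched to RefSeq by symbol for 9578 probes, gene identifier for 1824 and older name for 5419, and 5702 stayed unmatched. The fits were tested on simulated data. Python 3.11.15, pandas 2.3.3 and matplotlib 3.10.9 were used for promoters and figures.

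Named genes were the C1q chains in every comparison, up to 8 called members per direction by size, the extreme member of each role with those not called, and up to 5 called genes per direction from other lists, where uncharacterised names were passed over and 1 gene is not reported here. The members and lists were chosen with earlier results of these data known. Each rat is 1 array, and its number follows accession order and is only a name. The number of arrays limits the precision. No array duplicated another. Deviations of same-numbered rats from their group means correlated at -0.19 to 0.41, and in 0 of 11 comparisons did every pair correlate above 0.1. Because 1 low pair decides that rule, it cannot exclude that some pairs deviated together. Alternatives were another background offset, median scaling, the authors' table, other filters, slide or rat number as a block, every probe, only the compared groups and leaving out each rat.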

Additional observations from a re-analysis of the deposited data

Results flagged for a closer look

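In groups of 4 or 5 rats, a single rat's value was marked where its gap to the nearest rat, divided by the range of the group, passed Dixon's 95% critical value for its size. This held in 21 of the 312 groups tested (39 genes in 8 groups), and chance alone marks about 1 in 20 groups. In the deficient ligated rats given retinyl palmitate, rat 5 was high for Masp2 at 9.61, F9 at 10.99, F13b at 12.19 and C4bpa at 14.69. In deficient sham rats given retinyl palmitate, rat 3 was high for C6 at 11.22 and Klkb1 at 12.04 and low for Kng1 at 14.38. In deficient ligated vehicle rats, rat 1 was low for C8g at 10.95 and rat 5 was high for C2 at 13.41. Deficient sham vehicle rats had a low C9 of 13.83 in rat 3 and a low Proc of 10.74 in rat 2. In sufficient ligated vehicle rats, Klkb1 was low in rat 3 at 11.14 and Vtn in rat 5 at 14.66. Sufficient ligated rats given retinyl palmitate had a high C1qa of 11.46 in rat 1, a low C1qb of 11.49 and C4bpa of 13.66 in rat 2, and a low C6 of 10.78 in rat 3. In sufficient sham rats, rat 4 had a high C8g of 12.86 and a low Vtn of 14.85 with vehicle, and a high Serpinf2 of 13.24 and a low Vtn of 14.83 with retinyl palmitate.

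The ligation response of 4 genes differed between the diets in vehicle rats by the interaction term of limma, at -1.04 for Klkb1, -1.03 for Mbl1, -0.95 for C8g and -0.78 for C8a, each a deficient minus sufficient difference on the log2 scale. Klkb1 and C8g also have a marked rat in these groups. Both calls held without each of the 18 rats in turn, C8g at -1.02 to -0.83 and Klkb1 at -1.17 to -0.94.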

How the results depend on the processing

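None of the 96 calls and none of the counts or list values reversed under any alternative; values that were not called changed sign between the probes of C5, Kng1 and Serpinf2 in some comparisons, as Kng1 did between diets among ligated treated rats, at -0.20 and 0.75. Median scaling gave 6 called members in place of 12 for ligation in sufficient vehicle rats, 2 in place of 4 for the difference in ligation response between diets and 4 in place of 12 for retinyl palmitate in deficient ligated rats, and moved C1q minus secreted genes in the first from 1.42 to 1.62. Under it the share of called genes that were higher, over all genes, went from 60.4% to 82.1% for ligation in sufficient and from 51.4% to 75.8% in deficient vehicle rats, from 53.7% to 71% for the difference in response and from 45.1% to 34.6% for retinyl palmitate in deficient ligated rats, and the median of all genes moved by 0.268 for ligation in deficient vehicle rats. Called members kept their direction relative to that shift in 24 of 25 cases there and in every case in the other comparisons. With slide as a block 2 members were called between diets in sham rats and 8 for the difference in response. Fitting only the compared groups called 5 for retinyl palmitate in deficient ligated rats and 9 in place of 14 for ligation in deficient treated rats. Of 96 calls of single members, 31 missed the threshold with median scaling and 22 with only the compared groups. The count was 12 with no filter, 2 with the authors' table and 0 with every other planned setting that kept all rats. Of the latter, every probe and detection on at least 18 arrays kept the same probe and values for each called member. Both could thus end a call only through the fit over the other probes. Of 930 fits without 1 rat, 114 missed the threshold. Those fits called 8 to 12 members for ligation in sufficient and 21 to 24 in deficient vehicle rats, 15 to 19 between diets after ligation, 3 to 5 for the difference in response, 8 to 13 for retinyl palmitate in deficient ligated rats, 10 to 12 and 11 to 17 for ligation in sufficient and deficient treated rats, 0 to 1 between diets in sham rats (1 without deficient vehicle sham rat 3), 0 to 1 for retinyl palmitate in deficient sham rats (1 without treated rat 3), and 0 in the remaining comparisons. C1q minus secreted genes ranged from 1.35 to 1.47, 1.86 to 2.29, 1.02 to 1.32, 0.39 to 0.71 and -1.01 to -0.64 for ligation in sufficient and deficient rats, diets after ligation, diets in sham rats and retinyl palmitate. With rat number as a replicate block the counts were 14 and 27 for ligation in sufficient and deficient vehicle rats, 18 between diets after ligation, 6 for the difference in response, 14 for retinyl palmitate in deficient ligated rats and 13 and 16 for ligation in treated rats. The block changed none of the 96 calls, and the numbers do not pair the rats. The cause of these movements was not tested. All 39 members were detected above background on all 36 arrays.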
